A study of Rattus norvegicus with 45 samples.

Results

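The subunits of the mitochondrial respiratory chain and of ATP synthase were followed in rat liver after 2 triazole fungicides. The set was taken by name: a probe set entered where the array's annotation gave it 1 gene symbol, beginning with Ndufa, Ndufb, Ndufc, Ndufs, Ndufv, Uqcr, Cox4 to Cox8 or Atp5, or being one of the 4 subunits of succinate dehydrogenase (Sdha to Sdhd). Assembly factors of the Ndufaf series were left out, and where a gene had several probe sets the one with the highest mean over the 45 arrays stood for it. This gave 80 of the 14217 genes measured: 36 of complex I, 4 of complex II, 7 of complex III, 17 of complex IV and 16 of ATP synthase. The rule uses names and the mean level only.

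Complexes I and II pass electrons from NADH and succinate to ubiquinone, complex III passes them on to cytochrome c, and complex IV passes them to oxygen. Complexes I, III and IV pump protons across the inner mitochondrial membrane as they do so, and ATP synthase uses the returning protons to make ATP. Most subunits of these complexes are encoded in the nucleus and imported, and the name rule takes in only such genes. Hepatocytes, rich in mitochondria, draw on these complexes for urea synthesis, glucose production and fatty acid oxidation.

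The livers came from adult male Sprague-Dawley rats, 10 weeks old, dosed by gavage and sampled after 6 h, 24 h or 14 days. At each time there were 5 arrays of control rats, 5 of rats given myclobutanil at 225 mg/kg/day and 5 of rats given triadimefon at 175 mg/kg/day, by the sample titles. The doses are stated for the series as a whole and differ between the compounds, so the compounds cannot be compared dose for dose. Other labels conflict on the number of animals (the series text speaks of 15 livers, and the labelling protocol of 3 rats a group), so p-values measure the spread between these arrays.

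Scores are the deposited expression values, log-type in form with the base not given, and were quantile normalized before the tests. The bright end of the deposited scale varied between arrays, where the score exceeded by 1% of probe sets ran from 2.69 to 3.52, and the 80 genes lie near that end. The median score of the 80 genes ran from 1.99 to 2.57 over the 45 arrays as deposited and from 2.14 to 2.27 after quantile normalization. The typical SD of a gene within a group of 5 fell from 0.118 to 0.0401, and the main counts are also given as deposited. The 11 measured hepatocyte markers were above 0 in every group, with summed scores from 42.2 to 44.1 over all arrays. One library stood apart: the summed score of 11 skeletal muscle markers was 7.18 in myclobutanil 14 days replicate 5, against at most 0.688 in all other arrays. In that library the muscle isoform Cox6a2 scored 0.112 and Cox8b -0.103, in each case the highest of the 45 arrays, while the muscle isoform Cox7a1 scored -0.15, within the range of the others. The difference between 3′ and 5′ control probe sets, a sign of RNA quality, ran from 0.208 to 0.436 for Gapdh and from 0.62 to 0.898 for actin. In whole liver, fewer cells of a type and less RNA per cell cannot be told apart.

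**Figure D1:**
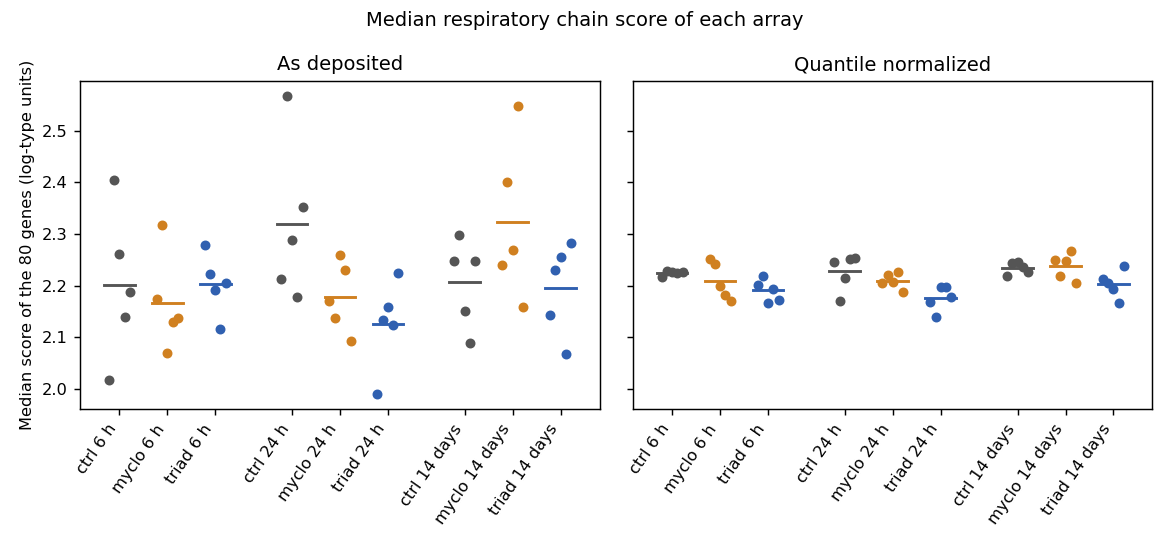
Median score of the 80 respiratory chain genes on each of the 45 arrays (log-type units), as deposited on the left and quantile normalized on the right; points are arrays, grouped by treatment and time. The deposited medians spread from 1.99 to 2.57 and the normalized ones from 2.14 to 2.27.

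Transcription factors of the NRF1, ETS and YY1 families are known regulators of many of these genes, so their short recognition letters were looked for in the promoters. A promoter here is 300 bases, 250 before and 50 after the annotated start, from RefSeq on the rat build GRCr8. It was at hand for 72 of the 80 genes. The NRF1 core CGCATGCG was present, on either strand, in 8.33% of these and in 1.81% of 27456 promoters of all genes. The ETS letters CCGGAAG were present in 27.8% against 9.22%, and the YY1 letters AAGATGGC in 22.2% against 3.44%. Any of the 3 motifs was found in 44.4% against 13.3%, with base composition not matched, and matches of different motifs shared bases in 0 of the 72. Among the 33 genes with a promoter that were lower with triadimefon at 24 h or 14 days, 48.5% held any of the 3, against 41% of the 39 others. The promoters of 3 genes are printed, because results described below turn on their genes: Sdhb (chr5:158547684-158547983, plus strand), Ndufb7 (chr19:41477242-41477541, minus strand) and Ndufab1 (chr1:186089287-186089586, minus strand). They are written 5′ to 3′ along the gene, with motif matches in capitals: 1 ETS match in Sdhb, 1 in Ndufb7 and 0 matches of any of the 3 motifs in Ndufab1.
Sdhb: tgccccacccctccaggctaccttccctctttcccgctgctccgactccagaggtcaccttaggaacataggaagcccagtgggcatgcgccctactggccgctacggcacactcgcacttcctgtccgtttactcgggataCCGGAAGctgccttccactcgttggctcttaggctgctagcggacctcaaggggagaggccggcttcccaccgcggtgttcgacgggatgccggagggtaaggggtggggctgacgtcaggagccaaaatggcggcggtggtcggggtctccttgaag
Ndufb7: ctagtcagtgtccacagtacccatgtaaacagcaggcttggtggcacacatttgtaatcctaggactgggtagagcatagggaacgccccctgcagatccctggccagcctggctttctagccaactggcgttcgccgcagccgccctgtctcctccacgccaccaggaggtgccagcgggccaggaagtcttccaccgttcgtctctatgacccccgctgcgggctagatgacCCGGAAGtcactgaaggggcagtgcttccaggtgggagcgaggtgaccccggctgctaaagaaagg
Ndufab1: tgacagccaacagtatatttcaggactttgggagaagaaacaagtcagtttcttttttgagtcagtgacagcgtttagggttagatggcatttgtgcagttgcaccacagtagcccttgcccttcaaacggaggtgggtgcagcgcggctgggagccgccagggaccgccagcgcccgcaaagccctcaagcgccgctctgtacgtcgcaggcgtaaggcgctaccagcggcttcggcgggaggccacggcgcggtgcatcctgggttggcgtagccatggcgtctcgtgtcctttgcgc
A match describes the letters in the window and was not tested as a binding site.

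With triadimefon, a larger share of the respiratory chain genes than of all probe sets was lower at 24 h and at 14 days, each gene by a small amount. A gene counted as changed, or called, where the Benjamini-Hochberg adjusted p of the limma fit over all 31042 probe sets was under 0.05. At 24 h triadimefon lowered 23 of the 80 genes and raised 1, where 4.58% of all probe sets were lower and 4.45% higher. At 14 days it lowered 28 and raised 1, where 4.49% of all probe sets were lower and 4.66% higher. The genes so lowered were 28.7% of the 80 at 24 h and 35% at 14 days, and among 546 other genes of like level (mean scores from 1.84 to 2.61, the quartiles of the 80) 15% and 10.8% were lower. The median difference of the 80 genes was -0.0527 at 24 h and -0.0305 at 14 days, against 0.00194 and -0.00299 over all 14217 genes. All 5 treated arrays lay below all 5 controls in 15 of the 80 genes at 24 h and in 20 at 14 days, 18.8% and 25% of them, against 3.56% and 3.87% of all probe sets.

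As deposited, the 24 h count was 19 and the 14 day count 3. At 24 h 18 genes were lower and 1 higher (5.75% and 2.24% of all probe sets), with a median of -0.19, and 12 of the 23 genes lowered after normalization were among them. Of the 80 genes 22.5% were lower there, close to the 21.8% of the 546 genes of like level, so on that scale the 80 did not stand out from genes as bright. At 14 days only 2 were lower and 1 higher (2.8% and 3.89%), although the differences of all 28 genes had the same sign as after normalization. Cox4i2, a dim probe set with a mean score of -0.0723, was 1 of these 2. The pseudogene Cox6c-ps1, also dim with a mean score of 0.104, had deposited 14 day means of 0.164 in controls and 0.0665 with triadimefon. The brighter genes Ndufb7, Ndufb10, Atp5mc3 and Uqcr10 were not called on that scale. The count of 29 changes at 14 days fell to 12 without triadimefon 14 days replicate 4 and to 15 without control 14 days replicate 2. Fitted on the compared groups alone, 13 genes were called at 24 h and 19 at 14 days.

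Myclobutanil changed fewer of the genes. At 24 h it lowered 6 and raised 2 of the 80, where 4.78% of all probe sets were lower and 6.05% higher. The share lowered, 7.5%, was above that of all probe sets and below the 13.4% of the 546 genes of like level. As deposited 2 were lower and 0 higher (5.42% and 3.05%). At 14 days 1 of the 80 was lower and 0 were higher (0.399% and 0.715% of all probe sets), and as deposited 0 were lower and 0 higher (0.058% and 0.734%). The median difference at 14 days was -0.0174 after normalization and 0.0994 as deposited, so the direction of the set turned with the scaling. Without myclobutanil 14 days replicate 5, the library with muscle transcripts, the count at 14 days was 0, and without replicate 1 it was 3.

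At 6 h limma called 0 of the 80 genes with either compound. With myclobutanil 8 of the 80 had an unadjusted p under 0.05, and with triadimefon 10. These are 10% and 12.5% of the 80, below the 11.2% and 13.9% of all probe sets. By the adjusted p, of all probe sets 0.564% were lower and 0.857% higher with myclobutanil, and 0.96% and 1.71% with triadimefon. As deposited the counts were also 0, with 0.11% and 0.271% of all probe sets for myclobutanil and 0.177% and 0.738% for triadimefon. Among the 80, the 6 h differences ran from -0.0829 to 0.0982 with myclobutanil and from -0.0906 to 0.0974 with triadimefon. Counts after leaving out 1 array ran up to 1 for myclobutanil (without control replicate 4 or myclobutanil replicate 2 or 5). For triadimefon they ran up to 2 (without control replicate 4), and to 1 without control replicate 3 or 5 or triadimefon replicate 3.

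**Figure D2:**
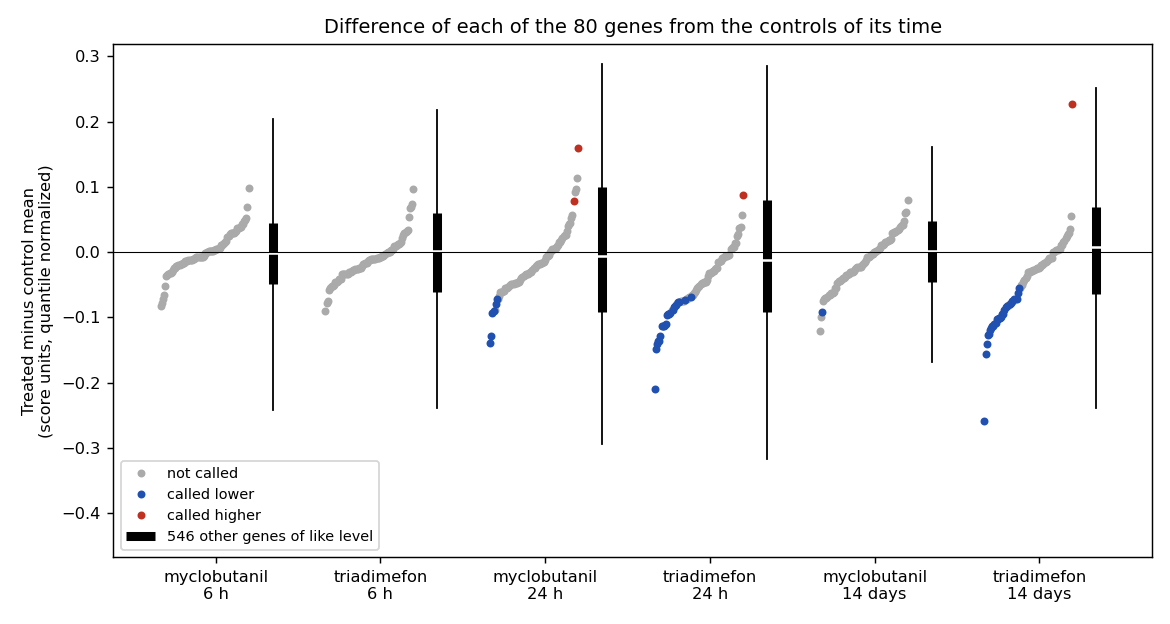
Treated minus control mean of each of the 80 genes (score units, quantile normalized), sorted within each comparison; blue points were called lower, red points higher and grey points were not called. The black bar beside each comparison spans the quartiles, and the thin line the 5th to 95th percentile, of the 546 other genes of like level; blue points number 23 and 28 with triadimefon at 24 h and 14 days.

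Other transcripts moved in the same arrays. With myclobutanil at 24 h all 9 measured Kupffer cell and macrophage markers were lower, their summed score running from 7.61 to 10.3 against 10.9 to 13.2 in controls, and all 6 dividing cell markers were higher. Of all probe sets 4.78% were lower and 6.05% higher with myclobutanil at 24 h. The summed hepatocyte markers were 42.2 to 43 there against 43.1 to 44 in controls, and 2 of 11 were lower. The Kupffer cell and dividing cell counts were the same as deposited, and the hepatocyte count was 0. With triadimefon at 24 h 0 of the 9 Kupffer cell markers changed, 2 of the 6 dividing cell markers were higher (2 as deposited), and of the hepatocyte markers 1 was higher and 2 were lower (0 and 0 as deposited). At 14 days triadimefon lowered 2 of the 11 hepatocyte markers and myclobutanil 2 of the 9 Kupffer cell markers, and as deposited both counts were 0. Of all probe sets 4.49% were lower at 14 days with triadimefon and 0.399% with myclobutanil.

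Some markers of other cell types moved with triadimefon too, where 4.58% of all probe sets were lower and 4.45% higher at 24 h. The shares of all probe sets at 14 days were 4.49% and 4.66%. At 14 days 1 of 5 bile duct markers was higher, Epcam (0.512 ± 0.0549, limma adjusted p = 2.5e-08; 0.542 as deposited), while Krt7, Krt19 and Cftr had mean scores under 0. The summed bile duct score ran from 0.72 to 1.02 there against -0.00621 to 0.459 in controls. Epcam made up most of that rise, as the median difference of the 5 markers was 0.0291. Of 7 endothelial markers 1 was higher, Pecam1 (0.138 ± 0.0309, adjusted p = 0.0036), or 2 as deposited, and the summed score ran from 7.89 to 8.35 against 7.38 to 7.72. Of 8 stellate cell markers 1 was higher, Rgs5 (0.126 ± 0.0406), and 0 as deposited. The mean score of Rgs5 was under 0 in the 14 day controls, and 3 of the 8 markers had negative differences. At 24 h triadimefon lowered 2 of 10 lymphocyte and neutrophil markers, S100a8 (-0.148 ± 0.0472) and S100a9 (-0.214 ± 0.0672), of which 1 was called as deposited. It also lowered Pdgfrb among the stellate cell markers (-0.134 ± 0.038) and Myh1 among the 11 muscle markers (-0.212 ± 0.0573), both called as deposited too. Ahsp among 5 erythroid markers was lower as well (-0.117 ± 0.0385) and not called as deposited. Negative differences at 24 h numbered 4 of 8 stellate cell, 5 of 11 muscle, 6 of 10 lymphocyte and neutrophil and 4 of 5 erythroid markers. The mean score of S100a8 was under 0 in the control and triadimefon groups of 24 h. With myclobutanil Epcam was higher at 14 days too (0.402 ± 0.0549). At 24 h myclobutanil lowered S100a8 (-0.152), S100a9 (-0.233), Pdgfrb (-0.143) and Myh1 (-0.2135), with S100a8 and S100a9 under 0 there. Pecam1 and Rgs5 at 14 days and Ahsp at 24 h were not called with myclobutanil. The mean score of Adgre1, a defining Kupffer cell marker, was under 0 in the myclobutanil groups of 24 h and 14 days and in no other group. The part of these shifts in the respiratory chain results was not tested.

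Complex I, the NADH dehydrogenase, held about as large a share of lowered genes as the whole set. Triadimefon lowered 12 of its 36 subunits at 24 h and 13 at 14 days and raised 0 at either time, with median differences of -0.0661 and -0.0396. Of all probe sets 4.58% were lower at 24 h and 4.49% at 14 days. Ndufs3, a core subunit close to the ubiquinone site, scored 2.03, 1.91, 1.91, 1.94 and 1.89 in the 5 controls at 24 h. It scored 1.87, 1.94, 1.88, 1.86 and 1.87 with myclobutanil and 1.77, 1.78, 1.82, 1.77 and 1.82 with triadimefon. All 5 triadimefon arrays lay below all controls, and the myclobutanil arrays overlapped them. The triadimefon difference was -0.148 ± 0.0273 (standard error of the fit, 5 arrays against 5, as in every difference below), with a limma adjusted p of 0.00031. It was -0.28 as deposited (adjusted p = 0.0027). At 14 days it was -0.0365 ± 0.0273 (adjusted p = 0.43).

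Ndufs7, the core subunit that carries the last iron-sulfur cluster before ubiquinone, was lower with both compounds at 24 h. Its 24 h scores were 2.32, 2.19, 2.21, 2.30 and 2.23 in controls, 2.08, 2.14, 2.12, 2.10 and 2.12 with myclobutanil and 2.13, 2.10, 2.12, 2.18 and 2.17 with triadimefon. Neither treated group overlapped the controls. The limma differences were -0.139 ± 0.0244 (adjusted p = 7.6e-05) and -0.11 ± 0.0244 (adjusted p = 0.0024), and -0.261 and -0.255 as deposited (adjusted p = 0.0085 and 0.012). At 14 days they were 0.0312 and -0.00922 (adjusted p = 0.62 and 0.86). Ndufs1, the largest iron-sulfur subunit of the NADH-oxidising arm, differed by -0.112 ± 0.0307 with triadimefon at 24 h (adjusted p = 0.015), a call lost without triadimefon 24 h replicate 5 (adjusted p = 0.058). Ndufv1, which holds the NADH and flavin site, differed by -0.0774 ± 0.0226 at 14 days (adjusted p = 0.025). That call was lost in 6 of the 10 fits that left out 1 array, namely without control replicates 2, 4 and 5 and without triadimefon replicates 1, 2 and 4. Ndufv2, another iron-sulfur subunit, was lower at both times, with differences of -0.137 ± 0.0335 and -0.128 ± 0.0335 (adjusted p = 0.0062 and 0.013). Its 14 day call was lost without triadimefon 14 days replicate 4 or control 14 days replicate 2.

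After normalization the largest difference of the whole set from controls was that of Ndufb7, an accessory subunit of the membrane arm, with triadimefon at 14 days, while as deposited it was that of Sdhb at 24 h (-0.347). It scored 1.95, 1.98, 2.07, 2.00 and 2.05 in the 14 day controls. With myclobutanil it scored 1.78, 1.97, 1.87, 1.99 and 1.83, and with triadimefon 1.78, 1.70, 1.79, 1.71 and 1.79. The triadimefon arrays lay below every control, and the myclobutanil arrays overlapped both groups. The limma difference was -0.259 ± 0.035 with triadimefon (adjusted p = 3.1e-06) and -0.121 ± 0.035 with myclobutanil (adjusted p = 0.078). As deposited the triadimefon difference was -0.212 ± 0.0726 (adjusted p = 0.066), also with no overlap. At 24 h the scores were 2.04, 1.93, 2.01, 1.99 and 2.07 in controls and 1.82, 1.88, 1.86, 1.88 and 1.89 with triadimefon, a difference of -0.141 ± 0.035 (adjusted p = 0.0069; -0.276 and 0.014 as deposited).

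Ndufb10, also of the membrane arm, was lower in 3 of the 6 treatment comparisons. Its 14 day scores were 1.93, 1.99, 1.99, 1.94 and 1.94 in controls and 1.84, 1.79, 1.83, 1.71 and 1.83 with triadimefon. The groups did not overlap, and the limma difference was -0.156 ± 0.0237 (adjusted p = 2.7e-05; -0.108 and 0.29 as deposited). At 24 h it was -0.113 ± 0.0237 with triadimefon and -0.0904 ± 0.0237 with myclobutanil (adjusted p = 0.0014 and 0.0084), and both calls held as deposited (adjusted p = 0.01 and 0.043). Ndufa11, a membrane-spanning accessory subunit, had differences of -0.0788 with myclobutanil at 24 h and -0.0682 and -0.0749 with triadimefon at 24 h and 14 days (adjusted p = 0.0066, 0.025 and 0.015). Ndufa8 was lower with triadimefon at both times, with differences of -0.129 ± 0.0394 and -0.126 ± 0.0394 (adjusted p = 0.032 and 0.037). Its 14 day call was lost without any of control replicates 2 to 5 or triadimefon replicates 3 and 4. The remaining complex I genes lowered by triadimefon at 24 h were Ndufa2, Ndufa13, Ndufs4 and Ndufb4, with differences from -0.113 to -0.0808. At 14 days they were Ndufa2, Ndufa5, Ndufa7, Ndufb1, Ndufb4, Ndufb9 and Ndufb11, from -0.113 to -0.0554. Ndufb8, an accessory subunit often used as a marker of the assembled complex, differed by -0.0775 and -0.0818 with triadimefon at the same times and was not called (adjusted p = 0.25 and 0.2).

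Ndufab1, the mitochondrial acyl carrier protein and a subunit of complex I, went the other way with myclobutanil at 24 h. It scored 2.23, 2.25, 2.22, 2.23 and 2.27 in controls, 2.43, 2.44, 2.40, 2.38 and 2.35 with myclobutanil and 2.29, 2.23, 2.29, 2.25 and 2.27 with triadimefon. Every myclobutanil array lay above every control, while the triadimefon arrays overlapped the controls. The limma difference was 0.16 ± 0.0225 (adjusted p = 1.9e-06), the largest rise of the set at 24 h. As deposited it was 0.0367 ± 0.0782 (adjusted p = 0.84) and the groups overlapped, so the call rested on the normalization. Ndufb4 was the remaining complex I gene lowered by myclobutanil at 24 h (-0.0718 ± 0.0223, adjusted p = 0.029).

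**Figure D3:**
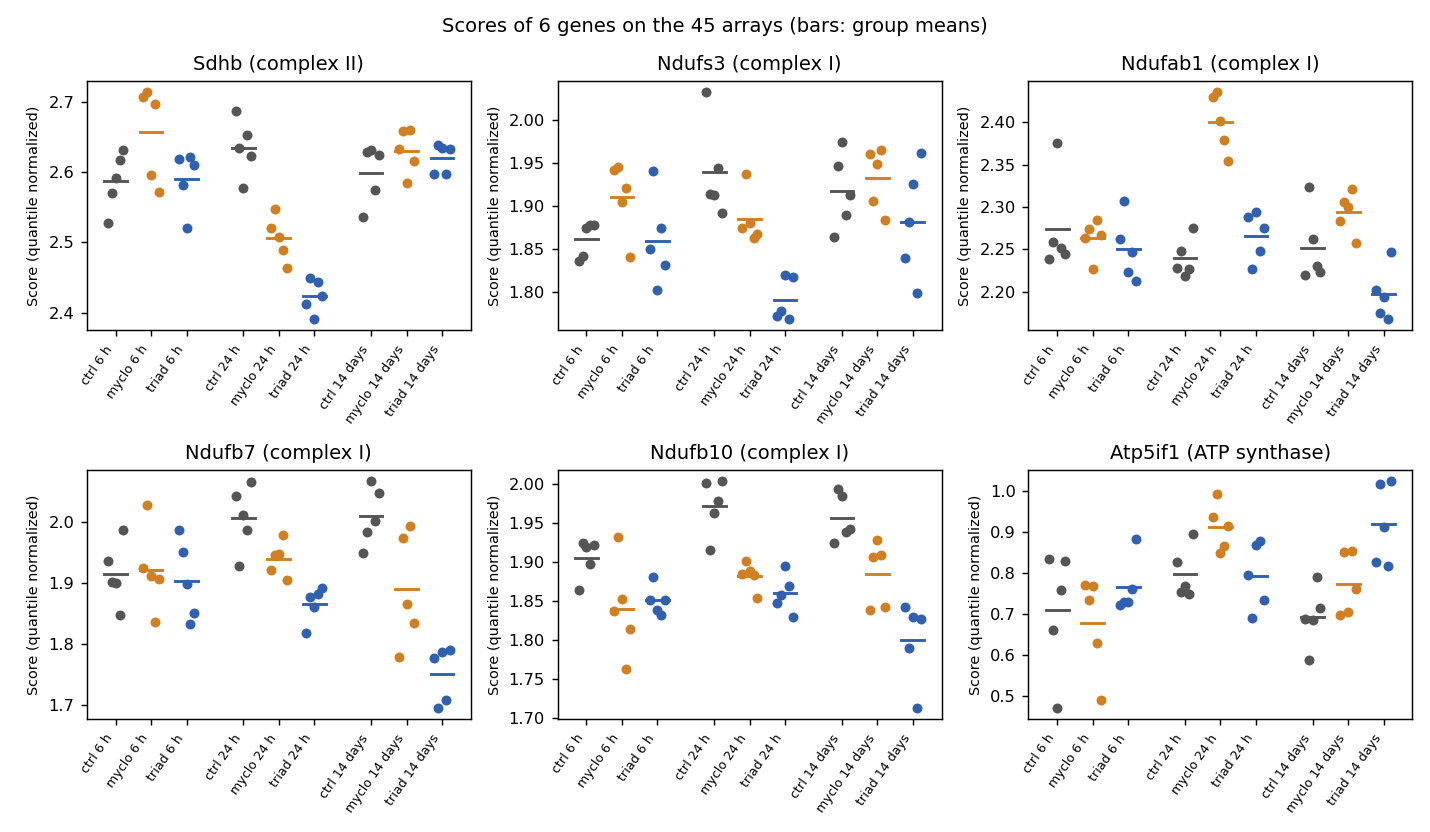
Quantile normalized scores of Sdhb, Ndufs3, Ndufab1, Ndufb7, Ndufb10 and Atp5if1 on the 45 arrays, by treatment and time; points are arrays and bars group means. Sdhb was lower with both compounds at 24 h, Ndufab1 higher with myclobutanil at 24 h, and Ndufb7 and Ndufb10 lowest with triadimefon at 14 days.

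Complex II, succinate dehydrogenase, is shared by the respiratory chain and the citric acid cycle, and 1 of its 4 subunits was called against controls. Of all probe sets 4.58% were lower at 24 h with triadimefon and 4.78% with myclobutanil. Sdhb, the iron-sulfur subunit, scored 2.69, 2.63, 2.58, 2.65 and 2.62 in the 24 h controls. With myclobutanil it scored 2.52, 2.55, 2.51, 2.49 and 2.46, and with triadimefon 2.41, 2.45, 2.39, 2.44 and 2.42. The 3 groups did not overlap: all myclobutanil arrays lay below all controls, and all triadimefon arrays below all myclobutanil arrays. With myclobutanil the limma difference was -0.129 ± 0.0253 (adjusted p = 0.00038). The triadimefon difference was -0.21 ± 0.0253 (adjusted p = 2.3e-07), the lowest adjusted p of the set. As deposited the differences were -0.244 ± 0.0868 (adjusted p = 0.073) and -0.347 ± 0.0868 (adjusted p = 0.0092). Triadimefon differed from myclobutanil by -0.0815 ± 0.0253, which was not called (adjusted p = 0.063, 95% interval -0.133 to -0.0303).

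Sdhb was called at 24 h and at neither of the other times. At 6 h it scored 2.53, 2.57, 2.59, 2.62 and 2.63 in controls and 2.62, 2.58, 2.52, 2.62 and 2.61 with triadimefon, a difference of 0.00264 ± 0.0253 (adjusted p = 0.98). At 14 days it scored 2.54, 2.63, 2.63, 2.57 and 2.62 in controls and 2.60, 2.64, 2.63, 2.60 and 2.63 with triadimefon, a difference of 0.021 ± 0.0253 (adjusted p = 0.66). Sdha, the flavoprotein subunit that oxidises succinate, differed by -0.0468 ± 0.0649 and -0.0532 ± 0.0649 at 24 h (adjusted p = 0.73 and 0.68). The membrane anchors Sdhc and Sdhd differed by -0.0558 and -0.0752 with triadimefon at 24 h (adjusted p = 0.16 and 0.08), with 95% intervals of -0.105 to -0.00652 and -0.131 to -0.0195. Between compounds Sdhc was lower with triadimefon than with myclobutanil at 24 h (-0.0816 ± 0.0244, adjusted p = 0.05 after rounding up) and Sdhd at 6 h (-0.109 ± 0.0276, adjusted p = 0.044), and neither was called as deposited (adjusted p = 0.66 and 0.97).

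In complex III, the cytochrome bc1 complex, the genes called with triadimefon were Uqcr11, Uqcr10 and Uqcrh, all small subunits. Small and core subunits were not tested against each other. Uqcr11 was lower with triadimefon at 24 h (-0.0888 ± 0.0266, limma adjusted p = 0.028). At 14 days Uqcr10 scored 2.45, 2.45, 2.42, 2.40 and 2.37 in controls and 2.27, 2.29, 2.36, 2.27 and 2.34 with triadimefon. The 2 groups did not overlap, and the difference was -0.114 ± 0.022 (adjusted p = 0.00076; -0.104 and 0.44 as deposited). Uqcrh, the hinge subunit beside cytochrome c1, was also lower at 14 days (-0.0998 ± 0.0295, adjusted p = 0.027). The core subunits Uqcrc1 and Uqcrc2 and the Rieske iron-sulfur protein Uqcrfs1 had triadimefon differences of -0.0251, -0.0743 and -0.015 at 24 h and -0.000601, 0.0044 and -0.00913 at 14 days, and none of the 6 was called.

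Complex IV, cytochrome c oxidase, had 1 of 17 genes lowered by triadimefon at 24 h and 5 at 14 days. Of all probe sets 4.58% and 4.49% were lower at these times, so the 24 h count was near that share. The 5 included the near-background Cox4i2 and Cox6c-ps1, described below. The 24 h gene was Cox7b (-0.0957 ± 0.0272, limma adjusted p = 0.02). At 14 days Cox5b, a subunit on the matrix side, scored 2.90, 3.02, 2.93, 2.97 and 2.91 in controls and 2.82, 2.89, 2.83, 2.84 and 2.84 with triadimefon. The groups did not overlap, and the difference was -0.101 ± 0.0277 (adjusted p = 0.017), lost without control 14 days replicate 2. Cox5a, its neighbour in the enzyme, differed by -0.116 ± 0.0355 (adjusted p = 0.033), a call lost in 6 of 10 fits that left out 1 array: control replicates 2, 4 and 5 and triadimefon replicates 1, 2 and 4. The brighter Cox5a probe set is listed with several genes and was not used. Cox6c, a nuclear-encoded subunit of the membrane part, was the 1 gene called with myclobutanil at 14 days. It scored 3.08, 3.20, 3.12, 3.07 and 3.09 in controls, 3.04, 2.98, 3.06, 3.02 and 3.02 with myclobutanil and 3.04, 3.04, 3.05, 3.01 and 3.07 with triadimefon, and the myclobutanil arrays lay below all controls. The differences were -0.0917 ± 0.0225 and -0.0722 ± 0.0225 (adjusted p = 0.031 and 0.036). The myclobutanil difference was 0.0599 as deposited and its call was lost without control replicate 2 or myclobutanil replicate 2, 4 or 5.

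Several complex IV subunits exist as liver-type and muscle-type or tissue-restricted isoforms. Cox4i1, Cox6a1 and Cox8a, the forms found in liver, were not called and had triadimefon differences of -0.0328, -0.0751 and 0.0141 at 24 h and 0.00292, -0.0242 and 0.00297 at 14 days. Of the 80 genes, 8 had a mean score under 0.2, near background in this tissue: Cox4i2, Cox6a2, Cox6b2, Cox7a1, Cox7b2, Cox8b, Ndufa4l2 and the pseudogene Cox6c-ps1. A change in a probe set so dim is hard to assign to its gene. Cox4i2, the hypoxia-linked isoform, was called lower with triadimefon at 14 days (-0.0792 ± 0.0223, adjusted p = 0.02), which was lost without control replicate 2 or triadimefon replicate 5. Cox6c-ps1 was called higher at 24 h (0.0869 ± 0.0267, adjusted p = 0.033) and lower at 14 days (-0.095 ± 0.0267, adjusted p = 0.02). The 24 h call was lost without control replicate 2 or 3 or triadimefon replicate 2, 3 or 5. Cox6a2, Cox7a1 and Cox8b had differences between -0.018 and 0.0383 in the triadimefon comparisons at 24 h and 14 days, with none called. Ndufa4, named for complex I and since assigned to complex IV, differed by -0.013 and -0.0302 with triadimefon at these times, and the dim Ndufa4l2 by -0.0066 and 0.024. Cox7a2l, which takes part in joining complexes III and IV, differed by -0.0722 and -0.0131 (adjusted p = 0.095 and 0.82). In the 72 brighter genes alone, after normalization, triadimefon lowered 23 and raised 0 at 24 h and lowered 26 and raised 1 at 14 days. As deposited only 2 of all 80 genes were lower at 14 days, and the dim Cox4i2 was 1 of them.

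Of the 5 complexes ATP synthase had the highest share lowered by triadimefon after normalization, 8 of 16 at each time. Of all probe sets 4.58% were lower at 24 h and 4.49% at 14 days. As deposited 18 of all 80 genes were lower at 24 h and only 2 at 14 days. Atp5f1c was not called on that scale at 24 h, and the complexes are not ranked on it here. At 24 h Atp5f1c, the central stalk subunit gamma, scored 3.08, 3.09, 3.03, 3.06 and 3.05 in controls. It scored 3.02, 3.05, 3.02, 3.00 and 3.06 with myclobutanil and 2.96, 2.93, 3.00, 2.94 and 2.93 with triadimefon. The triadimefon arrays lay below all controls and all myclobutanil arrays, and the limma difference from controls was -0.114 ± 0.0189 (adjusted p = 6.9e-05; -0.279 and 0.077 as deposited). At 14 days it was 0.0361 ± 0.0189 (adjusted p = 0.23). Atp5po, which joins the peripheral stalk to the catalytic head, was lower at 24 h, with a difference of -0.136 ± 0.0291 (adjusted p = 0.0016), and differed by -0.0229 at 14 days (adjusted p = 0.68). Of the subunits that form the catalytic head, Atp5f1a (alpha) was lower at 24 h, with a difference of -0.095 ± 0.024 (adjusted p = 0.008), and Atp5f1b (beta) differed by -0.0483 (adjusted p = 0.26). At 14 days the 2 differed by -0.0714 and -0.0284 (adjusted p = 0.052 and 0.53). The membrane part supplied the remaining 24 h genes, Atp5mg, Atp5mk, Atp5mf, Atp5mc3 and the stalk subunit Atp5pd, with differences from -0.0947 to -0.0727.

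At 14 days Atp5mc3, a gene for the proton-carrying ring subunit c, led the ATP synthase genes. It scored 3.35, 3.43, 3.38, 3.34 and 3.38 in controls, 3.37, 3.29, 3.39, 3.33 and 3.31 with myclobutanil and 3.27, 3.22, 3.25, 3.16 and 3.27 with triadimefon. The triadimefon arrays lay below every control and every myclobutanil array. The limma difference from controls was -0.141 ± 0.0235 (adjusted p = 0.00011; -0.161 and 0.42 as deposited). The others lowered at 14 days were the membrane subunits Atp5me, Atp5mpl, Atp5mf and Atp5mg, the stalk subunits Atp5f1e, Atp5f1d and Atp5pd, from -0.12 to -0.0631. With myclobutanil at 24 h Atp5mf was lower (-0.094 ± 0.0199, adjusted p = 0.00096). Atp5pf, a stalk subunit, was higher after normalization (0.0782 ± 0.0209, adjusted p = 0.0097) and -0.0346 as deposited, and its call was lost without myclobutanil 24 h replicate 2.

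Atp5if1, the inhibitor that blocks ATP hydrolysis by the enzyme, was the 1 gene raised by triadimefon at 14 days. It scored 0.688, 0.588, 0.686, 0.791 and 0.714 in controls and 0.696, 0.852, 0.705, 0.855 and 0.76 with myclobutanil. With triadimefon it scored 0.828, 1.02, 0.913, 0.818 and 1.02. All 5 triadimefon arrays lay above all controls, and the myclobutanil arrays overlapped both groups. The limma difference was 0.227 ± 0.0561 (adjusted p = 0.0082), and as deposited it was 0.274 ± 0.0605 (adjusted p = 0.0046) with the same separation. A dimmer probe set of the gene was also called higher (0.0979, adjusted p = 0.019), and another was not (0.108, adjusted p = 0.27). Their mean scores were -0.179 and -0.112, under the 0.2 below which a change is hard to assign. Atp5if1 at 24 h differed by -0.0055 (adjusted p = 0.97).

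Of the genes lowered by triadimefon, 11 were lowered at both times, 47.8% of the 23 at 24 h and 39.3% of the 28 at 14 days, and 40 of the 80 at one time or both. Each time had its own controls. The 11 were Ndufa2, Ndufa8, Ndufa11, Ndufb4, Ndufb7, Ndufb10 and Ndufv2 of complex I and Atp5mc3, Atp5mf, Atp5mg and Atp5pd of ATP synthase. They were 13.8% of the 80, where 0.512% of all probe sets and 3.66% of the 546 genes of like level were lowered at both times. The difference was negative at both times in 54 of the 80. As deposited 0 genes were called lower at both times, and the sign was negative at both in 46.

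**Figure D4:**
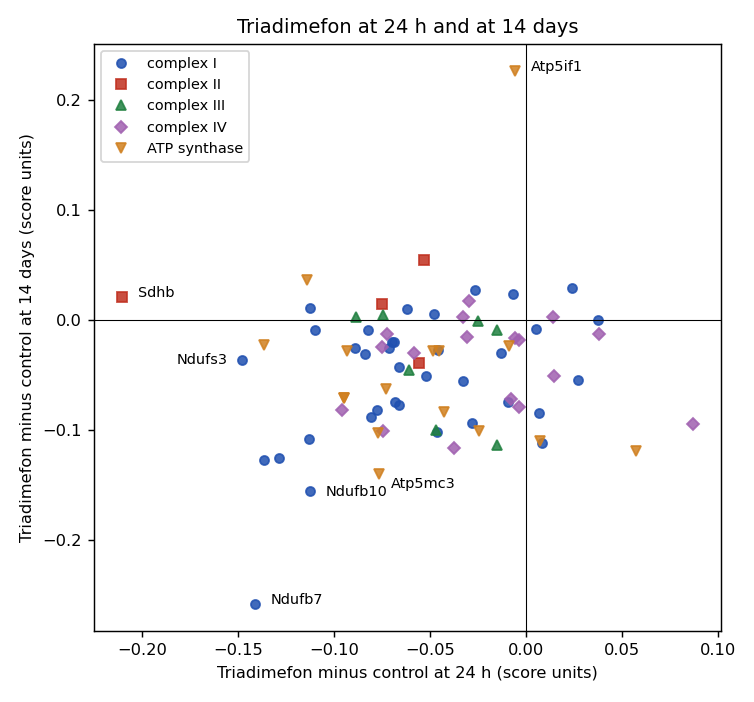
Triadimefon minus control difference of each of the 80 genes at 24 h (horizontal axis) and 14 days (vertical axis), in quantile normalized score units; symbols mark the complex. Points in the lower left were lower at both times (54 of 80), Sdhb was low at 24 h only, and Atp5if1 was high at 14 days only.

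The difference of an effect between times was tested directly. The triadimefon effect at 24 h differed from that at 6 h in 5 of the 80 genes, all toward lower values (3.5% of all probe sets in either direction). They were Sdhb (-0.213 ± 0.0358, limma adjusted p = 0.00029), Atp5f1c (-0.124), Atp5f1b (-0.123), Atp5mg (-0.126) and Ndufs3 (-0.146). The count was 3 without triadimefon 6 h replicate 2 or control 24 h replicate 1. Between 24 h and 14 days the triadimefon effect differed in 6 genes (11.4% of all probe sets). It turned upward for Sdhb (0.231 ± 0.0358, adjusted p = 6.5e-05), Atp5f1c (0.15) and Atp5if1 (0.233), and downward for Atp5me (-0.177), Cox6c-ps1 (-0.182) and Uqcr10 (-0.0985). These 6 are 7.5% of the 80, and the count ran from 4 to 9 when 1 array was left out and was 12 among probe sets above the median level.

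For myclobutanil the effect at 24 h differed from that at 6 h in 3 genes (4.03% of all probe sets): Sdhb (-0.198 ± 0.0358, limma adjusted p = 0.00047), Ndufs7 (-0.133) and Ndufab1 (0.171). Between 24 h and 14 days it differed in 4 (3.89% of all probe sets). The same 3 genes turned back, Sdhb by 0.16 ± 0.0358 (adjusted p = 0.0062), Ndufs7 by 0.171 and Ndufab1 by -0.119, and Atp5f1c differed by 0.0966. The count of 4 was 2 without myclobutanil 24 h replicate 1. Successive differences share the 24 h arrays, so a chance deviation at 24 h enters both.

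Set against each other, the treated groups differed most at 24 h, where 10 of the 80 genes were lower with triadimefon than with myclobutanil and 0 higher (3.6% of all probe sets in either direction). They were Ndufab1, Ndufb3, Ndufb9, Ndufc2 and Ndufs3 of complex I, Sdhc, Cox5a, and Atp5mc3, Atp5pf and Atp5f1c. Ndufab1 differed by -0.133 ± 0.0225 (limma adjusted p = 0.00032), with no overlap. At 14 days 5 were lower, Ndufb7, Ndufv2, Ndufab1, Atp5mc3 and Atp5f1d, and 0 higher (0.941%), and at 6 h 1 was lower, Sdhd, and 0 higher (0.754%). Ndufb7 differed by -0.138 ± 0.035 at 14 days (adjusted p = 0.039) and Sdhd by -0.109 ± 0.0276 at 6 h (adjusted p = 0.044). These counts depended on single arrays. At 24 h the count was 6 without myclobutanil replicate 1, 2 or 3 and 4 without triadimefon replicate 5. At 14 days it ran from 0 to 8: it was 8 without myclobutanil replicate 5 and 2 or fewer without any of myclobutanil replicates 1 to 4 or triadimefon replicates 1, 2 and 4. At 6 h it was 0 in 8 of the 10 fits, all but those without myclobutanil replicate 5 or triadimefon replicate 4. As deposited the counts were 1, 0 and 0 at 24 h, 14 days and 6 h. Larger shares of other lists were lower with triadimefon than with myclobutanil at 24 h. They were 24 of 37 proteasome subunits (64.9%), 25 of 48 cytosolic ribosomal proteins (52.1%) and 29 of 73 mitochondrial ribosomal proteins (39.7%). As deposited 2, 0 and 8 of these were lower.

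The controls themselves differed between times. Against 6 h, 5 of the 80 genes were higher and 0 lower in 24 h controls (4.49% of all probe sets in either direction), and 9 were higher and 0 lower in 14 day controls (5.26%). Sdhc was higher at both, by 0.102 ± 0.0244 (limma adjusted p = 0.0085) and 0.14 ± 0.0244 (adjusted p = 0.00029). Ndufa11 and Ndufb4 were higher at both too. Atp5po and Ndufs1 were higher at 24 h, and Ndufa5, Ndufa9, Ndufb9, Ndufv1, Cox5a and Cox7a2l at 14 days. The 24 h count was 2 without control 6 h replicate 3 or control 24 h replicate 4 or 5 and 9 without control 24 h replicate 2. The 14 day count was 4 or 5 without control 6 h replicate 1, 2 or 4 or control 14 days replicate 2 or 5. Each treated group was compared with the controls of its own time. Ndufa11, Ndufb4, Atp5po and Ndufs1 were also called lower with triadimefon at 24 h against the same controls, and Sdhc was not. At 14 days Ndufa11, Ndufb4, Ndufa5, Ndufb9, Ndufv1 and Cox5a were, and Sdhc, Ndufa9 and Cox7a2l were not. Mean Atp5po was 2.333 in 6 h controls, 2.474 in 24 h controls and 2.338 with triadimefon at 24 h. Mean Ndufa11 was 2.076, 2.145 and 2.076. The part of the control change in these calls was not tested.

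Other genes that the chain depends on moved unevenly with triadimefon, and several counts depended on the scaling. Of all probe sets 4.58% were lower and 4.45% higher at 24 h (5.75% and 2.24% as deposited). At 14 days 4.49% were lower and 4.66% higher (2.8% and 3.89% as deposited). Some list shares were near these, such as the 14 day assembly factors with 2.44% lower and 7.32% higher. Of 41 measured assembly factors 11 were lower and 2 higher at 24 h (12 and 0 as deposited), and 1 lower and 3 higher at 14 days (0 and 4). Sdhaf2, which attaches the flavin to Sdha, was lower at 24 h (-0.167 ± 0.0375, limma adjusted p = 0.0027), as was the complex I factor Ndufaf1 (-0.148 ± 0.0351, adjusted p = 0.0046). At 14 days Acad9, a complex I assembly factor related to acyl-CoA dehydrogenases, was higher (0.198 ± 0.0344, adjusted p = 0.00019). All 3 were called as deposited too. Of 19 mobile carriers and ubiquinone synthesis genes 5 were lower at 24 h and 2 at 14 days, with 0 higher, and as deposited 5 and 0 were lower. Coq8a was lower at 24 h (-0.286 ± 0.0612), and at 14 days Etfb, which feeds electrons from fatty acid oxidation, was lower after normalization (-0.146 ± 0.0267, adjusted p = 0.00035) and not called as deposited (-0.15, adjusted p = 0.28). Of 15 citric acid cycle genes 3 were lower and 2 higher at 24 h (5 and 0 as deposited), and 2 lower and 1 higher at 14 days (0 and 1). Mdh2, the mitochondrial malate dehydrogenase, was lower at both (-0.196 ± 0.033 and -0.14 ± 0.033), as was Sucla2 (-0.114 ± 0.0242 and -0.131 ± 0.0242). As deposited both kept their sign at 14 days (-0.123 and -0.0814) without being called.

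Among 20 regulators of mitochondrial biogenesis 3 were higher and 2 lower with triadimefon at 24 h (2 and 2 as deposited), and at 14 days 2 were higher and 2 lower (2 and 0). Of all probe sets 4.45% were higher and 4.58% lower at 24 h, and 4.66% and 4.49% at 14 days. The 14 day import shares, 6.9% in each direction, were near these. Polg, the mitochondrial DNA polymerase, was higher at 24 h (0.315 ± 0.0517) and 14 days (0.2 ± 0.0517), and Lrpprc, which stabilises mitochondrial messenger RNA, at 14 days (0.301 ± 0.052, limma adjusted p = 0.00018). Esrra, a nuclear receptor known to activate respiratory genes, was higher at 24 h (0.137 ± 0.0293, adjusted p = 0.0016). These 4 calls were made as deposited too. Of 73 mitochondrial ribosomal proteins 17 were lower and 2 higher at 24 h (32 and 1 as deposited). At 14 days 8 were lower and 4 higher, and as deposited 0 lower and 5 higher, so the balance turned with the scaling. It turned for the 29 import proteins at 24 h as well, with 1 lower and 5 higher after normalization and 3 lower and 1 higher as deposited. At 14 days 2 import proteins were lower and 2 higher (0 and 2 as deposited). Of 11 carriers, pores and uncoupling proteins 2 were lower and 1 higher at 24 h (1 and 1 as deposited), and 1 lower and 2 higher at 14 days (0 and 0). Vdac1, the outer membrane pore, was lower at 24 h (-0.108 ± 0.0251) and higher at 14 days (0.114 ± 0.0251), the latter not called as deposited (0.132).

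Of 48 cytosolic ribosomal proteins, abundant transcripts of another machine, 1 was lower and 0 higher at 24 h with triadimefon, and 0 lower and 2 higher at 14 days, all of which were lost as deposited. Of all probe sets 4.58% were lower and 4.45% higher at 24 h, and 4.49% and 4.66% at 14 days. The cytosolic ribosomal shares, 2.08% lower at 24 h and 4.17% higher at 14 days, were below these. Of 37 proteasome subunits 27 were higher and 1 lower at 24 h after normalization, but only 1 higher and 1 lower as deposited. At 14 days 1 was higher, and 0 as deposited. With myclobutanil at 24 h 6.05% of all probe sets were higher and 4.78% lower (3.05% and 5.42% as deposited). Of the 73 mitochondrial ribosomal proteins 16 were higher there and 2 lower (3 and 3 as deposited), and 10 of the 29 import proteins were higher and 0 lower (3 and 0). Of the 48 cytosolic ribosomal proteins 16 were higher, and 0 as deposited, and of the 37 proteasome subunits 32 were higher, and 17 as deposited. Of the 20 biogenesis regulators 4 were higher there and 0 as deposited. Tfam, which packages and transcribes mitochondrial DNA, was one of them (0.183 ± 0.0315, limma adjusted p = 5.7e-05; 0.129 and 0.11 as deposited).

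**Figure D5:**
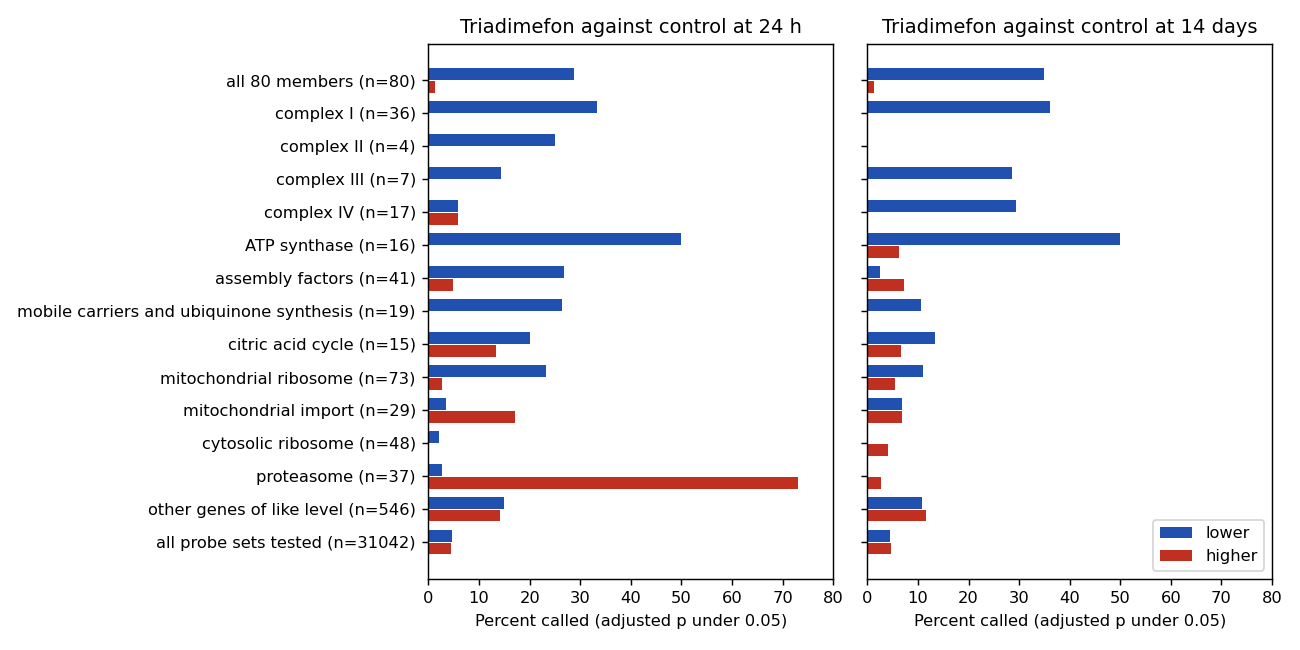
Percent of each gene list called lower (blue) and higher (red) after quantile normalization with triadimefon against control, at 24 h (left) and 14 days (right), for the 80 genes, the 5 complexes and other mitochondrial, ribosomal and proteasome lists, with the number of measured genes in brackets. ATP synthase shows 8 of 16 lower at both times, and the proteasome 27 of 37 higher at 24 h, where 1 of 37 was higher as deposited.

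Some subunits are not covered by the 80. Those encoded in mitochondrial DNA lie outside the name rule. A further 7 probe sets, each listed with several genes of which 1 fits the rule, were left out, and 2 of these 7 were lower with triadimefon at 24 h and 3 at 14 days, with 0 called in the other 4 treatment comparisons. Of all probe sets 4.58% were lower with triadimefon at 24 h and 4.49% at 14 days. Of the 8 genes with further probe sets, 9 probe sets in all, several differed in call or sign. The probe set used for Ndufv3 had a triadimefon difference of -0.02 at 14 days (limma adjusted p = 0.78), and its dimmer one was called higher (0.114, adjusted p = 0.02). For Atp5po, lowered at 24 h, the further probe set differed by 0.00694 (adjusted p = 0.91). For Ndufa7 and Atp5me, lowered at 14 days, the further ones differed by 0.0214 and -0.0467 (adjusted p = 0.61 and 0.1). The mean scores of these further probe sets were -0.0896, -0.0755 and -0.235.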

How the data were processed

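Rat liver RNA was hybridised to 45 Affymetrix Rat Genome 230 2.0 arrays. The values were deposited by the authors as 1 log-type score per probe set and array; the log base, summary method and normalization are not given in the sources used here, so no fold change is printed. Groups and replicate numbers follow the sample titles. Of 31099 probe sets, 57 controls were left out and 31042 tested, of which 20826 have 1 gene symbol, 436 several and 9780 none in the platform annotation. Scores were quantile normalized, because the bright end of the deposited scale, where these genes lie, varied between arrays; the deposited scores were fitted in the same way. limma 3.58.1 in R 4.3.3 fitted 1 mean per group to all 45 arrays (lmFit, eBayes), with Benjamini-Hochberg adjustment over the 31042 probe sets and a threshold of 0.05. The fit was tested on simulated data. Genes were named with values by a rule: in each treatment comparison up to 5 called genes of highest and 5 of lowest difference, a panel of 27 subunits, of which 25 were measured, and up to 3 called genes of each further list. Other called genes are named with part of their values, chosen after these were seen. The genes and lists were chosen with earlier results of these data known. Alternatives were cyclic loess, filters on level, only the compared groups, limma's trend with robust estimation, the replicate number as a block, the ending of the array file name as a covariate or filter, and each array left out in turn. Deviations of same-numbered arrays from their group means correlated weakly. Of 45 pairs, 14 had a correlation over 0.1, with a range from -0.161 to 0.236. The numbers were not taken as pairs, and differently numbered arrays were not compared in this way.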

Additional observations from a re-analysis of the deposited data

Results flagged for a closer look

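In 9 of 216 groups of 5 checked, the highest or lowest array lay apart from the other 4 by Dixon's criterion, where chance alone gives about 1 in 20 groups. Atp5if1 scored 0.884 in triadimefon 6 h replicate 5, and Atp5pf scored 2.15 in the same array. Atp5mf scored 2.94 in myclobutanil 14 days replicate 1, Cox5a 0.757 in myclobutanil 24 h replicate 1 and Ndufs3 1.94 in myclobutanil 24 h replicate 2. Ndufab1 scored 2.38 in control 6 h replicate 3 and Ndufs1 1.90 in control 24 h replicate 1. Ndufv1 scored 1.86 in triadimefon 6 h replicate 3 and Ndufv2 2.20 in myclobutanil 6 h replicate 5.

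Effects that differed between times were found by the limma test of the difference itself, adjusted over all probe sets. For myclobutanil, 24 h less 6 h gave -0.198 for Sdhb (adjusted p = 0.00047), -0.133 for Ndufs7 (0.018) and 0.171 for Ndufab1 (0.00066). The 14 day effect less the 24 h effect gave 0.16 for Sdhb (adjusted p = 0.0062), 0.171 for Ndufs7 (0.0025), -0.119 for Ndufab1 (0.025) and 0.0966 for Atp5f1c (0.03). For triadimefon, 24 h less 6 h gave -0.213 for Sdhb (adjusted p = 0.00029), -0.146 for Ndufs3 (0.025), -0.126 for Atp5mg (0.022), -0.124 for Atp5f1c (0.0046) and -0.123 for Atp5f1b (0.046). The 14 day effect less the 24 h effect rose for Sdhb by 0.231 (adjusted p = 6.5e-05), for Atp5if1 by 0.233 (0.049) and for Atp5f1c by 0.15 (0.00036). It was -0.182 for Cox6c-ps1 (adjusted p = 0.0018), -0.177 for Atp5me (0.015) and -0.0985 for Uqcr10 (0.034).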

How the results depend on the processing

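The count of called genes among the 80 was recomputed under each alternative, and counts within 1.5 times of the main one are not listed. As deposited, it was 2 for myclobutanil at 24 h, 0 for myclobutanil at 14 days and 3 for triadimefon at 14 days. Between compounds it was 0, 1 and 0 at 6 h, 24 h and 14 days, and in controls 1 at 24 h and 1 at 14 days. The 24 h against 6 h effect counts were 0 for myclobutanil and 2 for triadimefon. The sign of 2 differences turned as deposited, Atp5pf with myclobutanil at 24 h (-0.0346) and Cox6c with myclobutanil at 14 days (0.0599). Cyclic loess gave 2 for myclobutanil at 14 days, 0 and 5 between compounds at 6 h and 24 h, 3 for 24 h controls and 3 for the triadimefon effect at 24 h against 6 h. Testing only probe sets above the median level, so fewer of them, gave 1 for each compound at 6 h, 2 for myclobutanil at 14 days and 12 for the triadimefon effect at 14 days against 24 h. Cox4i2 had no value there. Fitting only the compared groups, so fewer arrays, gave 0 for myclobutanil at 14 days, 13 and 19 for triadimefon at 24 h and 14 days, 0 and 0 between compounds at 6 h and 14 days, and 3 and 4 for 24 h and 14 day controls. Trend with robust estimation gave 0 for myclobutanil at 14 days, 0, 6 and 1 between compounds at 6 h, 24 h and 14 days, and 2 and 4 for the controls. It gave 2 for the myclobutanil effect at 14 days against 24 h and 3 for the triadimefon effect at 24 h against 6 h. The replicate number as a block, although the numbers were not taken as pairs, gave 2 for myclobutanil at 14 days and 3 between compounds at 14 days. It gave 2 for the myclobutanil effect at 14 days against 24 h, and moved no other count by over 1.5 times. The file-name ending as a covariate gave 1 for myclobutanil at 6 h and 3 between compounds at 14 days. Arrays of ending 11 alone gave 0 and 1 between compounds at 6 h and 14 days, 1 for 24 h controls and 2 for the triadimefon effect at 24 h against 6 h. Using all probe sets of the genes applies to counts only. Leaving out 1 array at a time, the counts at 6 h, 24 h and 14 days ran from 0 to 1, 7 to 9 and 0 to 3 for myclobutanil and from 0 to 2, 16 to 26 and 12 to 28 for triadimefon. Between compounds they ran from 0 to 1, 4 to 9 and 0 to 8, and in controls from 2 to 9 at 24 h and 4 to 11 at 14 days. The effect counts ran from 3 to 4 and 2 to 6 for myclobutanil and from 3 to 7 and 4 to 9 for triadimefon. Of 27 differences of single named genes, 10 kept direction and call under every alternative other than leaving out an array, 17 kept them under every such omission, and 8 under both; over the 215 fits of the former, 23 lost the call and 2 turned. The cause of these shifts was not tested beyond what each alternative's construction shows. With 5 arrays a group, precision is limited by their number, and the median standard error of a difference was 0.0254 after normalization and 0.0717 as deposited.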
